A study of Homo sapiens with 12 samples.

Results

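The 7 human sirtuin genes, SIRT1 to SIRT7, were followed in MDA-MB-231 cells treated with an HDAC inhibitor, with a compound named 1, or with the dual-target compound a6. Members were taken by gene symbol. All 7 were present in each of 3 comparison tables, which list 18534 genes (SAHA), 27126 genes (compound 1) and 15255 genes (a6). MDA-MB-231 is a human cell line from triple-negative breast cancer, long established in culture. Cells received DMSO (Ctrl) or 2.5 µM of SAHA, compound 1 or a6 for 48 h, with no other difference named between the groups, and RNA was sequenced from 3 libraries per group, 12 in all. SAHA (vorinostat) inhibits zinc-dependent histone deacetylases (HDACs). The labels call SAHA and compound 1 single-targeting and a6 dual-targeting, towards HDACs and G-quadruplexes, which are four-stranded structures of guanine-rich nucleic acid.

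Sirtuins remove acetyl and other acyl groups from lysine, and they do so with NAD as a co-substrate rather than with a catalytic zinc ion. Hydroxamate inhibitors such as SAHA bind the zinc ion of the other HDAC classes, so sirtuins are not regarded as their direct targets. The family divides by place in the cell. SIRT1, SIRT6 and SIRT7 are mainly nuclear, with SIRT7 enriched in the nucleolus. SIRT2 is mainly cytosolic, and SIRT3, SIRT4 and SIRT5 work in mitochondria.

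Every table compares 1 compound with Ctrl and gives a mean normalized read count over both groups, a log2 fold change, its standard error (SE) and p-values, but no value per library. The spread between libraries is therefore known only through the standard error, and depth per library is unknown here. The labels call the libraries biological replicates without naming separate cultures, so p-values measure the spread between these libraries, which may be partly technical. In bulk RNA, fewer cells with a transcript and less transcript per cell cannot be told apart. The 5 mesenchymal markers fixed for this line (VIM, CD44, AXL, CAV1 and FN1) had mean normalized counts of 2576 to 20436. In the compound 1 table, the only one that lists them, ESR1 and PGR were at 0.489 and 0.317, and CDH1 was at 5.38 there. ERBB2 and EPCAM were present, with mean counts of 1715 to 2088 and 137 to 171 over the 3 tables.

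Promoter sequence is shown for 3 members because a6 is described as acting on G-quadruplexes. A quadruplex-type motif was searched on both strands as 4 runs of GGG or longer, with 1 to 7 bases between runs, in windows from 250 bases before to 50 after each RefSeq start (build GRCh38.p14). Windows were held for 6 of the 7 sirtuins, with none for SIRT7. The motif was found in SIRT1 and SIRT5, 2 of 6 sirtuin genes with a window, beside 27.9% of all 27305 genes with one. By window, 3 of 9 sirtuin windows held it, beside 25.0% of all 35116 windows. SIRT1 and SIRT5 are printed as its holders, and SIRT4 as the member with the highest fold change in any table. Capitals mark the motif, and each sequence is written 5′ to 3′ on the gene's strand.
SIRT1, plus strand, chr10:67884406-67884705: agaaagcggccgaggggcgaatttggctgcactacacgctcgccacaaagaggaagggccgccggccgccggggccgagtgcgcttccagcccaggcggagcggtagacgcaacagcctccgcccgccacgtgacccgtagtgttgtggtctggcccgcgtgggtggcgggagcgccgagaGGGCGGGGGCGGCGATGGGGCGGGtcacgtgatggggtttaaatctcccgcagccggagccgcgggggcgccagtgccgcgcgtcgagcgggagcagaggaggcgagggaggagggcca
SIRT5, plus strand, chr6:13574351-13574650: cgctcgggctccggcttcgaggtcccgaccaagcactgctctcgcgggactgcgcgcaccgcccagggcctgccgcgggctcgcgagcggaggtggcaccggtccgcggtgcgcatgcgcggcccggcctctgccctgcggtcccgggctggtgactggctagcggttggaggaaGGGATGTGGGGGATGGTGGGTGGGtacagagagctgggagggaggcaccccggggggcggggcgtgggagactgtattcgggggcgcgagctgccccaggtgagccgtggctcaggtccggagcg
SIRT4, plus strand, chr12:120302071-120302370: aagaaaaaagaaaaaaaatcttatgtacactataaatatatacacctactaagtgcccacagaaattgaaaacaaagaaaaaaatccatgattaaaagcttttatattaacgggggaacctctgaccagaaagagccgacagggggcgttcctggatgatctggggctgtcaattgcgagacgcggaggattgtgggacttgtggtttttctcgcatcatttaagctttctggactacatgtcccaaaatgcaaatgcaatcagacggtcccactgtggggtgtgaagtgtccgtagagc

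Both motifs cover 24 bases. That of SIRT1 runs from -69 to -46 and that of SIRT5 from -75 to -52, counted with the annotated start as 0. A second RefSeq start of SIRT5 places the same bases at -3 to 20. The SIRT1 window also holds CACGTG, an E-box that reads the same on both strands, at -123 and -44, outside the G-run motif. This E-box was in 7.26% of all windows, and 0.664% of windows held it at least 2 times. The GC content of the printed windows was 72.7% for SIRT1, 74.7% for SIRT5 and 42.3% for SIRT4. Neither window of SIRT4 held the motif. A match describes the letters and says nothing of folding or binding in these cells.

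The sirtuins fell into a more abundant and a less abundant set in Ctrl cells, which received DMSO. Levels below are mean normalized counts in Ctrl computed from the SAHA table, divided by the merged exon length of the gene. SIRT6, a chromatin deacylase of telomeres and DNA repair, stood at 391 per kilobase. SIRT7, a nucleolar deacylase linked to ribosomal RNA synthesis, stood at 388, and SIRT2, which deacetylates alpha-tubulin, at 354. These 3 did not differ from their neighbours in the order beyond an approximate 95% error, taken from the standard error of the fold change. SIRT3, the main mitochondrial deacetylase, was next at 165, a gap of 1.10 on the log2 scale below SIRT2, beyond that error of 0.60. A gap of 2.46 then separated SIRT3 from SIRT1, the best studied nuclear sirtuin, at 30.0 per kilobase. SIRT5, which removes succinyl and malonyl groups in mitochondria, was level with SIRT1 within the error, at 27.5. SIRT4, a mitochondrial regulator of glutamine and lipid use, was lowest at 13.3, with a gap of 1.05 to SIRT5 against an error of 0.87.

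**Figure D1:**
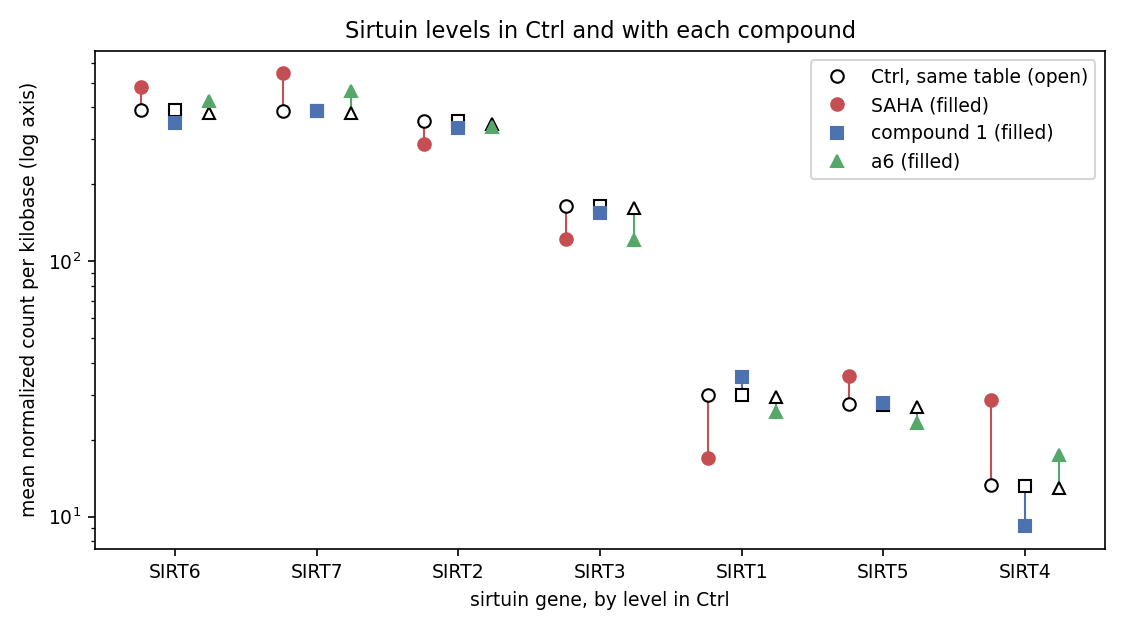
Mean normalized count per kilobase of merged exon (log axis) for each sirtuin, in Ctrl (open symbols) and with the compound (filled symbols) of the same comparison table; lines join the values of 1 table, and symbols are group means without error bars because no value per library was used. SIRT6, SIRT7 and SIRT2 lie highest and SIRT4 lowest, at 13.3 in Ctrl and 28.7 with SAHA.

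The order depends partly on the gene length used. With the longest annotated transcript, a choice added after seeing the data, SIRT2 stood at 159 and SIRT7 at 197 per kilobase, beside 177 for SIRT3 and 407 for SIRT6. SIRT1, SIRT5 and SIRT4 stayed below, at 33.3, 36.9 and 13.3.

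No sirtuin passed the threshold with any compound. In the authors' DESeq2 test at an adjusted p under 0.05, 0 of 7 were called with SAHA, where 7.55% of all genes were, 0 of 7 with compound 1, where 0.0% were, and 0 of 7 with a6, where 0.583% were. At an unadjusted p under 0.05, 1 was below the limit with SAHA (18.4% of all genes), 0 with compound 1 (0.199%) and 0 with a6 (7.41%). With 7 genes these counts lie near the shares over all genes and do not set the sirtuins apart. Fewer genes had an unadjusted p under 0.05 with compound 1 than would do so if no gene changed. The 0 of 7 there is therefore weak evidence of no change, and the cause was not tested. The lowest sirtuin adjusted p by the authors' deposited table was 0.245 with SAHA, 1.00 with compound 1 and 0.842 with a6. The median log2 fold change of the 7 was 0.30 with SAHA, -0.08 with compound 1 and -0.05 with a6, beside -0.01, 0.01 and -0.03 over all genes of each table. The numbers of sirtuins above 0 were 4, 3 and 3. The 3 comparisons use the same Ctrl libraries, so their values are not independent.

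The size of change that could have been called differed between members. The limits follow from the deposited standard errors and the largest unadjusted p that still passed. To be called with SAHA, the estimated change of a sirtuin had to be at least 1.85-fold (SIRT2) to 2.99-fold (SIRT4). With a6 the estimate had to be at least 1.85-fold (SIRT7) to 4.57-fold (SIRT4). The 95% interval of the log2 fold change lay wholly within 2-fold either way for 3 of 7 sirtuins with SAHA (SIRT2, SIRT5 and SIRT6). It did so for 6 of 7 with compound 1 and 6 of 7 with a6, SIRT4 being the exception both times. The fold limits above apply to the estimated change, so a smaller true change may have been missed. No such limit can be given for compound 1, where no gene was called.

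**Figure D2:**
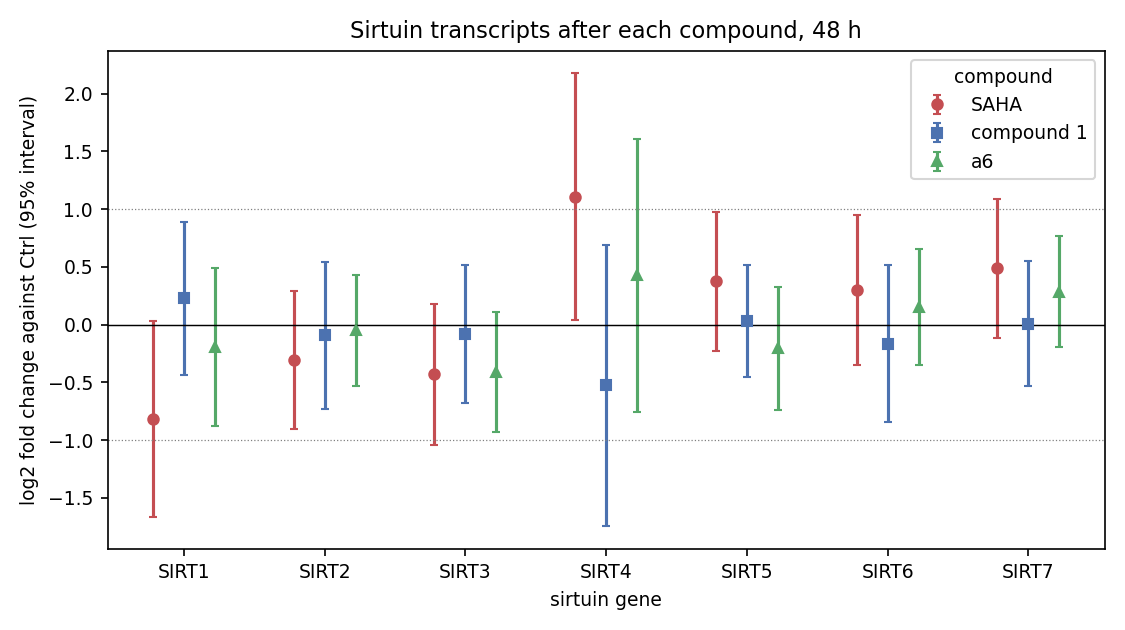
Log2 fold change of each sirtuin against Ctrl with its 95% interval, computed from the deposited standard error, for SAHA (circles), compound 1 (squares) and a6 (triangles); dotted lines mark a 2-fold change. The intervals of SIRT4 are the widest, and its interval with SAHA, 0.04 to 2.18, is the only one that does not include 0.

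SIRT4 had the lowest level of the family, with the highest fold change with SAHA and a6 and the lowest with compound 1, and passed in none. Its mean normalized count computed from the table was 16.2 in Ctrl and 34.9 with SAHA. The authors' deposited table gave a log2 fold change of 1.11 ± 0.55 (SE), with an unadjusted p of 0.0423 and adjusted p = 0.245 (DESeq2), and 17.3% of genes had a smaller p. SIRT4 was the 1 sirtuin in the authors' deposited list of genes raised by SAHA, whose rule is an unadjusted p under 0.05 and at least a 2-fold change. That list takes 7.16% of the genes of the table, and both SAHA lists together take 10.4%. In the authors' lists for compound 1 and a6, which take 0.159% and 2.61% of genes, there were 0 sirtuins. With compound 1 the SIRT4 level was 16.1 in Ctrl and 11.2 with the compound, and with a6 15.8 and 21.3. The authors' deposited table put the log2 fold changes at -0.53 ± 0.62 for compound 1 and 0.43 ± 0.60 for a6. SIRT4 lies on chromosome 12, 120302316 to 120313249 (GRCh38, GENCODE 29).

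The other mitochondrial members went in different directions with SAHA, and neither passed. SIRT3 deacetylates enzymes of respiration and antioxidant defence. Its mean normalized count was 464 in Ctrl and 345 with SAHA, 462 and 437 with compound 1, and 453 and 341 with a6. The authors' deposited table put the log2 fold changes at -0.43 ± 0.31 (SE), -0.08 ± 0.30 and -0.41 ± 0.26, so the point estimates with SAHA and a6 were close and that with compound 1 was near 0. With a trend on GC content removed, the SAHA value of SIRT3 was -0.27 (adjusted p = 0.765). SIRT3 had the smallest p of the family with a6 (unadjusted p = 0.122, adjusted p = 0.842 by the authors' deposited table). SIRT5 stood at 162 in Ctrl and 210 with SAHA, and at 158 in Ctrl and 137 with a6. The authors' deposited table put its log2 fold changes at 0.37 ± 0.31 with SAHA, 0.03 ± 0.25 with compound 1 and -0.21 ± 0.27 with a6. The compound 1 value of SIRT5 changed sign, to -0.05, when the GC trend was removed. SIRT3 lies on chromosome 11, 215458 to 236931, and SIRT5 on chromosome 6, 13574529 to 13615158 (GRCh38).

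Among nuclear members, SIRT1 had the lowest fold change of the family with SAHA and the highest with compound 1, without passing in either. SIRT1 deacetylates FOXO factors and PGC-1alpha, among other proteins. Its mean normalized count was 136 in Ctrl and 77.3 with SAHA, which is 56.7% of the Ctrl level with a 95% interval of the fold from 0.314 to 1.02. The authors' deposited table gave a log2 fold change of -0.82 ± 0.43 (SE, unadjusted p = 0.0600, adjusted p = 0.302). With compound 1 SIRT1 went from 137 to 160, and with a6 from 134 to 117. Those changes were 0.23 ± 0.34 and -0.19 ± 0.35 on the log2 scale by the authors' deposited table. The compound 1 value was 0.10 with the GC trend removed. SIRT1 lies on chromosome 10, 67884669 to 67918390 (GRCh38).

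SIRT6 and SIRT7 were above 0 with SAHA and a6 without passing. SIRT6, on chromosome 19, 4174109 to 4182604, stood at 668 in Ctrl and 823 with SAHA, and at 653 and 727 with a6. SIRT7, on chromosome 17, 81911939 to 81921323, stood at 677 and 948 with SAHA and at 661 and 806 with a6. For SIRT7 the authors' deposited table put the log2 fold changes at 0.49 ± 0.31 (SE) for SAHA and 0.28 ± 0.24 for a6, and those of SIRT6 were 0.30 ± 0.33 and 0.15 ± 0.26. Compound 1 left SIRT6 at -0.17 ± 0.35 and SIRT7 at 0.01 ± 0.27 by the authors' deposited table. The SIRT7 value with compound 1 was so close to 0 that centring on the median of all genes turned its sign, to -0.0015. With the GC trend removed, the SAHA values of SIRT6 and SIRT7 were 0.58 and 0.61, still uncalled at adjusted p of 0.372 and 0.273.

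SIRT2, the cytosolic member, stayed nearest to Ctrl with a6. Its level was 755 in Ctrl and 610 with SAHA, 752 and 706 with compound 1, and 737 and 711 with a6. The authors' deposited table put the log2 fold changes at -0.31 ± 0.31 (SE), -0.09 ± 0.32 and -0.05 ± 0.25. With the GC trend removed the SAHA value of SIRT2 was -0.12 (adjusted p = 0.917). SIRT2 lies on chromosome 19, 38878555 to 38899862 (GRCh38).

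The compounds were given at the same dose and time, so their responses were compared directly for all 3 pairs of compounds and 7 genes, 21 differences in all. None passed: 0 of 7 were called for a6 against SAHA, where 0.256% of all genes were, 0 of 7 for a6 against compound 1 (0.0328%) and 0 of 7 for SAHA against compound 1 (1.06%), in a two-sided z test on differences of the deposited DESeq2 fold changes. At an unadjusted p under 0.05, with independent errors, there were 0, 0 and 1, beside 5.56%, 1.46% and 7.26% of all genes. The 1 gene was SIRT4, whose response to SAHA exceeded that to compound 1 by a log2 difference of 1.63 ± 0.83 (SE), with an interval from 0.01 to 3.26 (unadjusted p = 0.0482, adjusted p = 0.679). The difference for SIRT1 had the opposite sign, -1.04 ± 0.55 and an interval from -2.12 to 0.03 (adjusted p = 0.722). With 7 genes the counts of 0, 0 and 1 lie near the shares over all genes. The errors of the compound 1 comparison, where few genes had a small p, enter both pairs with that compound.

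Those errors treat the comparisons as independent, although they share the Ctrl libraries. On the same basis SIRT5 differed by -0.58 between a6 and SAHA (lower with a6), with an interval from -1.39 to 0.22 (adjusted p = 1.00), and SIRT3 by 0.02, with an interval from -0.78 to 0.82. Intervals within 2-fold either way were then found for SIRT3, SIRT6 and SIRT7 between a6 and SAHA, for SIRT2, SIRT5 and SIRT7 between a6 and compound 1, and for 0 of 7 between SAHA and compound 1.

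With an error correlation of 0.5 in place of 0 the intervals were narrower, and 0 of 7 were still called for each pair, where 3.54% (a6 against SAHA), 0.289% (a6 against compound 1) and 5.33% (SAHA against compound 1) of all genes were. For SAHA against compound 1 the adjusted p became 0.0785 for SIRT4 and 0.103 for SIRT1 (z test on DESeq2 values). The SIRT5 interval between a6 and SAHA became -1.15 to -0.01, which no longer includes 0 (unadjusted p = 0.0461, adjusted p = 0.325). At an unadjusted p under 0.05, a threshold tried with this correlation after seeing the data, there was 1 sirtuin for a6 against SAHA (SIRT5), beside 14.8% of all genes. There were 0 for a6 against compound 1 (5.55%) and 2 for SAHA against compound 1 (SIRT1 and SIRT4, 16.7%). The intervals within 2-fold became 4 of 7 between a6 and SAHA, with SIRT2 added, and 5 of 7 between a6 and compound 1, with SIRT3 and SIRT6 added. Between SAHA and compound 1 they became 3 of 7 (SIRT2, SIRT3 and SIRT5).

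**Figure D3:**
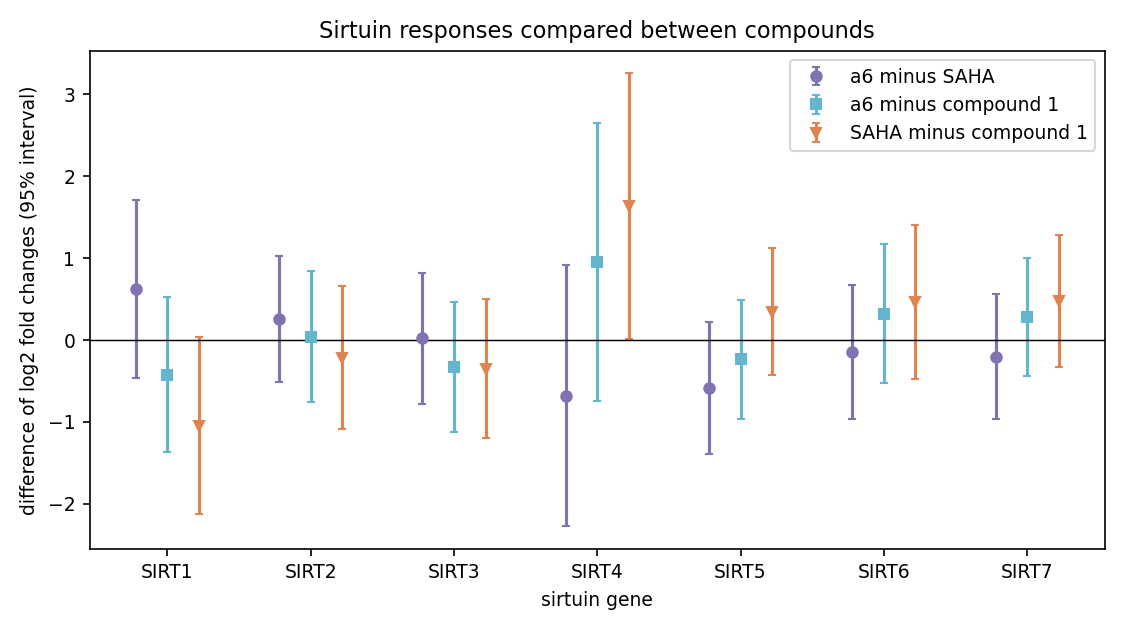
Difference between compounds in log2 fold change of each sirtuin with its 95% interval, treating the comparisons as independent, for a6 minus SAHA (circles), a6 minus compound 1 (squares) and SAHA minus compound 1 (downward triangles). The SIRT4 interval for SAHA minus compound 1, 0.01 to 3.26, just clears 0 and the other 20 include 0.

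Neighbouring transcription units limit some of these values, since the strand setting of the counting is unknown here. In GENCODE 29 an antisense gene, AL441883.1, shares 1045 exonic bases with SIRT5, 17.8% of its exon length, and was counted at a mean of 15.3 to 16.3. PSMD13, a proteasome subunit gene on the opposite strand, shares 219 exonic bases with SIRT3 (7.78%). The authors' deposited table put its log2 fold changes at 0.15 ± 0.27 (SE) for SAHA and 0.19 ± 0.21 for a6, with the opposite sign to SIRT3. NFKBIB, which encodes an NF-kB inhibitor, shares 40 exonic bases with SIRT2, and was at 0.79 ± 0.23 for a6 by the authors' deposited table (adjusted p = 0.0706). Without strand, reads from shared bases cannot be told apart. MAFG overlaps SIRT7 on the same strand with 0 shared exonic bases.

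The zinc-dependent HDAC genes encode the direct target class of SAHA. All 11 (HDAC1 to HDAC11) were measured, and 0 rose and 0 fell with each of the 3 compounds by the authors' DESeq2 test, where 7.55%, 0.0% and 0.583% of all genes were called. At an unadjusted p under 0.05 there were 1, 0 and 0, beside 18.4%, 0.199% and 7.41% of all genes. With 11 genes these counts lie near the shares over all genes. HDAC4 had the smallest p with SAHA, at -0.61 ± 0.27 (SE, adjusted p = 0.168) by the authors' deposited table. The smallest with a6 was HDAC6, a cytosolic tubulin deacetylase like SIRT2, at -0.44 ± 0.27.

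Some genes that supply the sirtuins' co-substrate changed with SAHA. Of 20 genes of NAD synthesis and transport, 16 were measured, 4 rose and 1 fell with SAHA, beside 4.53% and 3.02% of all genes called in these directions. The median over the 16 was -0.06, against -0.01 for all genes, with 7 of 16 above 0. The median size of change regardless of sign was 0.76 for the list and 0.39 for all genes, and 7 of 16 had an unadjusted p under 0.05, beside 18.4% of all genes. Mean counts in the list went down to 3.60, beside 2.44 over all genes. The list was chosen with earlier results of these data known, so these values describe it and are not independent support. NNT, the mitochondrial transhydrogenase that passes hydride between NADH and NADP, went from 1131 in Ctrl to 372. The authors' deposited table gave it a log2 fold change of -1.60 ± 0.30 (SE, adjusted p = 7.58e-06). The NMN adenylyl transferases, which make NAD from nicotinamide mononucleotide, did not move as 1 group. NMNAT3, the mitochondrial form, rose from 18.3 to 60.1, at 1.71 ± 0.51 (adjusted p = 0.0147) by the authors' deposited table. It lost its call at an adjusted p under 0.01, and its mean count of 39.2 was below the higher minimum tried, 50. NMNAT2, of the Golgi and cytosol, rose from 170 to 372, at 1.13 ± 0.31 (adjusted p = 0.00729) by the authors' deposited table. The nuclear NMNAT1 was at -0.83 ± 0.32 by the authors' deposited table, without passing (adjusted p = 0.0985).

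The other members of that list that rose were NMRK1, a nicotinamide riboside kinase, at 1.29 ± 0.36 (SE), and KMO, of the kynurenine route, at 1.24 ± 0.34 by the authors' deposited table. NAMPT, the rate-limiting enzyme of NAD salvage, was at 0.21 ± 0.34 by the authors' deposited table, also without passing. With compound 1, 19 of the list were measured, and 0 rose and 0 fell, with 0 at an unadjusted p under 0.05 (DESeq2). The smallest p there was that of NMNAT3, at -1.06 ± 0.62 by the authors' deposited table. With a6, 14 were measured, and 0 rose and 0 fell (0.243% and 0.341% of all genes), with 2 at an unadjusted p under 0.05 (DESeq2). NNT had the smallest p with a6 as well, at -0.54 ± 0.25 (adjusted p = 0.589) by the authors' deposited table.

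Enzymes that compete with sirtuins for NAD or take up their product nicotinamide formed a list of 9. Of these, 9 were measured with SAHA and with compound 1 and 7 with a6, and 0 rose and 0 fell in each (DESeq2), about what the shares of all genes called (7.55%, 0.0% and 0.583%) would give in so few. At an unadjusted p under 0.05 there were 0, 0 and 1, beside 18.4%, 0.199% and 7.41%. That 1 was NNMT, which methylates nicotinamide: with a6 it went from 1205 to 508, at -1.25 ± 0.36 (SE, adjusted p = 0.0831) by the authors' deposited table. With SAHA NNMT was at -0.73 ± 0.38, and PARP1, a major nuclear NAD user, at -0.13 ± 0.24 by the authors' deposited table. Of 3 regulators of SIRT1 (the inhibitor CCAR2, the activator RPS19BP1 and the repressor HIC1), 0 passed with any compound. HIC1 had an unadjusted p under 0.05 with SAHA and a6, at -0.61 ± 0.27 and -0.48 ± 0.24 by the authors' deposited table.

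Transcripts of known sirtuin substrates and partners were examined by compartment. Of 26 nuclear ones, all measured, 1 rose and 3 fell with SAHA, beside 4.53% and 3.02% of all genes, with a median of -0.28 against -0.01 for all genes. An unadjusted p under 0.05 (DESeq2) was reached by 8 of the 26, beside 18.4% of all genes. The substrate lists were chosen with earlier results of these data known, so these values only describe them. SUV39H1, a histone H3 lysine methyltransferase, was at -1.24 ± 0.31 (SE), and DNMT1, the maintenance DNA methyltransferase, at -0.86 ± 0.27 by the authors' deposited table. DNMT1 lost its call with the GC trend removed (-0.75, adjusted p = 0.0656). PPARGC1A, which encodes the SIRT1 substrate PGC-1alpha, rose from 16.3 to 77.8, at 2.25 ± 0.57 by the authors' deposited table.

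In the cytosolic list 11 of 13 were measured, and 0 rose and 2 fell with SAHA, beside the same 4.53% and 3.02%, with a median of -0.36. Of the 11, 5 had an unadjusted p under 0.05 (DESeq2), beside 18.4% of all genes. With the GC trend removed 4 were called. The members that fell were TUBA1B, an alpha-tubulin gene, from 21337 to 10406, and CDC20, an activator of the anaphase-promoting complex, from 6236 to 2738. The other alpha-tubulin genes of the list did not pass with SAHA. TUBA1A was at 0.70 ± 0.31 (SE) and TUBA1C at -0.36 ± 0.27 by the authors' deposited table. Of 18 measured mitochondrial substrates 0 rose and 0 fell with SAHA (DESeq2), 4 had an unadjusted p under 0.05 (18.4% of all genes), and ACSS1, the mitochondrial acetyl-CoA synthetase, had the smallest adjusted p, 0.0992, by the authors' deposited table. With a6 and compound 1, 0 members of these 3 lists passed (DESeq2). At an unadjusted p under 0.05 there were 3 nuclear, 0 cytosolic and 2 mitochondrial members with a6, where 7.41% of all genes were, and 0 of each with compound 1 (0.199%). These counts lie near the shares over all genes. The smallest p in these lists with a6 were those of NBN, a DNA break sensor, at -0.98 ± 0.37, IDH2, a mitochondrial SIRT3 substrate, at -1.01 ± 0.39, and TUBA1B at -0.33 ± 0.22 by the authors' deposited table. With compound 1 they were those of SUV39H1, PGAM2 and MLYCD, between -0.61 and -0.26.

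**Figure D4:**
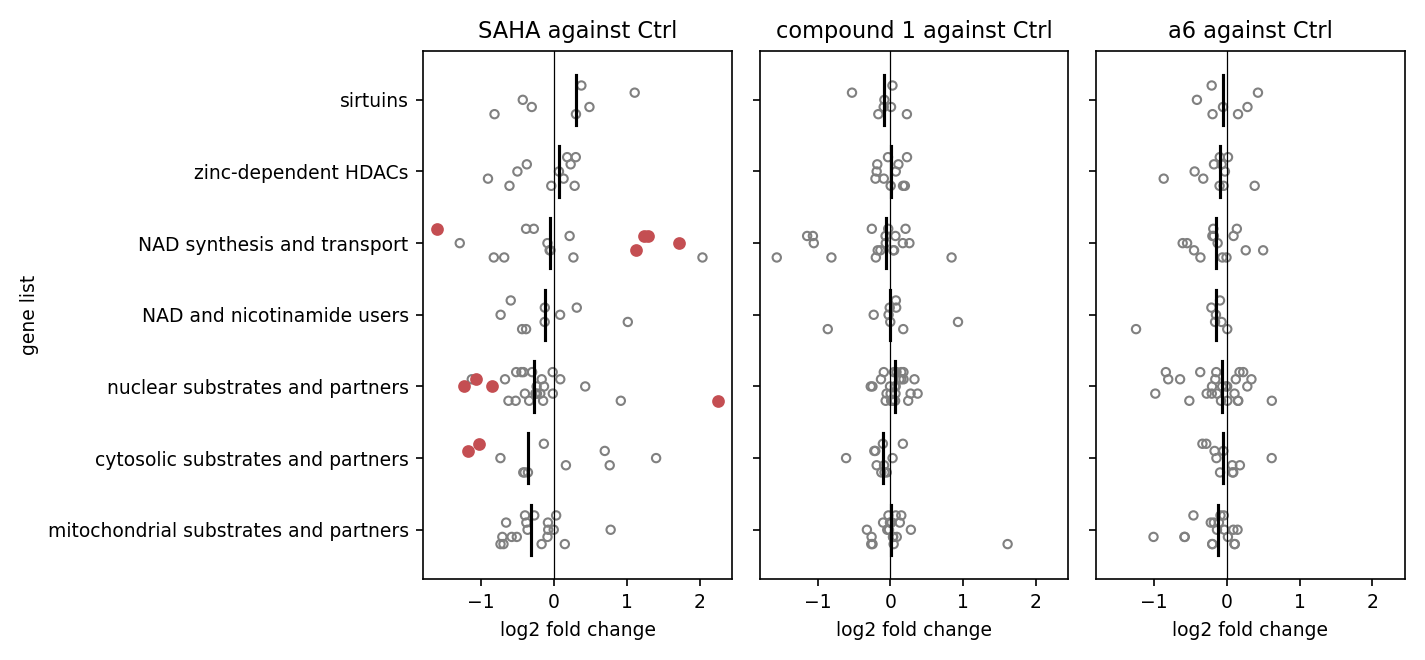
Log2 fold change against Ctrl of each measured gene in 7 lists, for SAHA, compound 1 and a6; filled points passed the authors' DESeq2 test at an adjusted p under 0.05, open points did not, black bars are list medians, and the vertical spread within a row only separates points. Filled points appear in the SAHA panel alone, 5 of them in the NAD synthesis row and none in the sirtuin row.

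Signs of other cell types and of RNA quality were listed beside these results. Of 10 markers of blood, endothelial and fibroblast cells, 4 were measured with SAHA and 2 rose, beside 4.53% of all genes. LUM went from 0.378 to 49.3 and VWF from 1.41 to 23.0, and the summed level of the 4 was 394 in Ctrl and 549 with SAHA. PDGFRB, which did not pass with any compound, made up most of both sums, at 389 and 468. PTPRC, CD3E and DCN were in none of the tables. With compound 1, 6 markers were measured, with sums of 394 and 369, of which PDGFRB was 387 and 359. With a6 PDGFRB was the 1 marker measured, at 380 and 332. Mitochondrially encoded mRNAs had 0 of 13 members above 0 with compound 1, 10 of 13 with SAHA and 5 of 13 with a6. Over all genes 51.4%, 49.3% and 45.9% were above 0. With compound 1 the median of the 13 was -0.23 and 0 were called, as were 0.0% of all genes (DESeq2). None of the 13 had an unadjusted p under 0.05 there, beside 0.199% of all genes. The part of these in the sirtuin values was not tested.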

How the data were processed

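RNA-seq of 12 libraries in 4 groups of 3 was used through the authors' comparison tables and gene lists, with 0 columns of per-library values. Per the submitters' processing notes, cutadapt, DESeq2 and the GRCh38 (hg38) build were used; the aligner, counter, strand setting and tool versions are unknown here (not given in the sources used here). Per the file headers, the deposited tables give a mean normalized count (a signal), a log2 fold change, the standard error of that change, the Wald score, and p-values before and after adjustment. Depth per library is unknown. The deposited statistic and adjusted p-value were checked against their own columns. The deposited lists matched an unadjusted p under 0.05 and 2-fold with 0 mismatches. The deposited G4-related lists were searched for sirtuin names only, and 0 were found. They are split by compound and direction of change, and SIRT4 with SAHA was the only sirtuin in the authors' lists of changed genes. That 0 is therefore no evidence on G-quadruplexes in sirtuin genes.

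Against Ctrl, the adjusted p-value of the authors' DESeq2 test was taken from the deposited tables, with 0.05 as its limit. Group levels were computed from mean count and fold change, taking groups as equal in size. Compounds were compared by a two-sided z test of the difference, its error being the root of both squared errors added, adjusted by Benjamini-Hochberg over all shared genes. An approximate error of a group mean was the standard error divided by the root of 2. Intervals are 95%. The difference test was first tried on simulated data, with 200 changed genes drawn from those with mean counts of at least 50. Changes at counts as low as those of SIRT4 were not covered, and the share recovered is not reported here. Gene positions and lengths are from GENCODE 29 (names matched for 95.8%, 94.0% and 96.7% of genes in the SAHA, compound 1 and a6 tables), promoters from RefSeq. Python 3.11.15, pandas 2.3.3, scipy 1.17.1 and statsmodels 0.14.6 were used.

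The 7 members and the 12 gene lists were chosen with earlier results of these data known. Named genes are all sirtuins, in each other list the members called and the one with the smallest adjusted p in each comparison, and genes overlapping a sirtuin. Some list members that this rule would name are not reported here. NAMPT, NMNAT1 and PARP1, and NNMT with SAHA, were added for their roles after values were seen. PDGFRB was added because it makes up most of the marker sums, and TUBA1A and TUBA1C as the other alpha-tubulin genes listed. Alternatives were other thresholds (unadjusted p, adjusted p under 0.01, the authors' rule), mean counts of at least 10 or 50, median centring, genes in all 3 tables, removal of a lowess trend on GC content (share 0.3) and an error correlation of 0.5, also with an unadjusted p (added after seeing the data).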

Additional observations from a re-analysis of the deposited data

How the results depend on the processing

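The count of sirtuins called stayed at 0 under 34 of the alternatives run on the 6 comparisons and rose in 5, all with looser thresholds. An unadjusted p under 0.05 gave 1 with SAHA and 1 for SAHA against compound 1, and the authors' rule gave 1 with SAHA, SIRT4 each time. With an error correlation of 0.5 and an unadjusted p together, tried after seeing the data, the count was 1 for a6 against SAHA (SIRT5) and 2 for SAHA against compound 1 (SIRT1 and SIRT4). SIRT4 had no value where a mean count of at least 50 was asked for. The adjusted p of SIRT4 with SAHA ranged from 0.230 to 0.245 over the thresholds on an adjusted p, and that of SIRT1 from 0.253 to 0.309. Of all sirtuin fold changes and differences, 2 turned sign, both with compound 1 and near 0: SIRT7 at -0.0015 when centred on the median and SIRT5 at -0.0488 with the GC trend removed. The cause was not tested. Removal of the GC trend also moved the SAHA values of SIRT2 (-0.31 to -0.12), SIRT3 (-0.43 to -0.27) and SIRT6 (0.30 to 0.58) by over 1.5 times, without a call. An error correlation of 0.5 raised the genes called over the whole tables from 39 to 540 for a6 against SAHA, from 5 to 44 for a6 against compound 1 and from 197 to 987 for SAHA against compound 1, with 0 sirtuins among them, as it narrows the errors by construction. An adjusted p under 0.01 left 820 genes with SAHA (1399 at 0.05) and 36 with a6 (89). No paired analysis was possible because the tables hold no value per library, and leaving out single replicates was not run for the same reason. Low counts limit SIRT4 most.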

Other observations

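Genes with a RefSeq promoter window were also divided by the G-run motif found in SIRT1 and SIRT5. With a6, 4349 measured genes held it in at least 1 window and 6102 did not. Their median log2 fold changes were -0.07 and -0.01, and 28 (0.644%) and 31 (0.508%) were called in the authors' DESeq2 test. With SAHA the medians were -0.06 over 4764 genes and 0.00 over 6920, with 9.13% and 7.28% called. With compound 1 they were 0.01 over 5307 and 0.02 over 8271, with 0 called in both (DESeq2). These differences were not tested. The split was not repeated with the GC trend removed, so the motif and GC content cannot be told apart here. SIRT1 and SIRT5, the members with the motif, had log2 fold changes of -0.19 with a standard error of 0.35 and -0.21 with 0.27 with a6 in the authors' deposited table, and the 4 members with a window and no motif ranged from -0.41 to 0.43.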
